A study of Vitis vinifera with 45 samples.

Results

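The flavonol branch of the flavonoid pathway and its light regulators were followed through 7 genes in the berry skin of Crimson Seedless grape, out of 29958 transcripts in the deposited tables. The 7 were chosen by identifier and not by their values: VIT_18s0001g03430 and VIT_18s0001g03470, taken as members of the flavonol synthase (FLS) cluster and called FLSa and FLSb here, VIT_07s0005g01210 (MYBF1), VIT_04s0008g05210 (HY5), VIT_05s0020g01090 (HYH), VIT_11s0052g01600 (GT5) and VIT_11s0052g01630 (GT6). Crimson Seedless, a red table grape of Vitis vinifera, was grown self-grafted (CS/CS), grafted onto the rootstocks 101-14 (CS/101-14), 110R (CS/110R) or SO4 (CS/SO4), and graft-free on its own roots (CS). The peel of the berries was sampled at the 3 stages that the labels write as DAF45, DAF75 and DAF105, counted in days from flowering, with 3 libraries in each of the 15 groups and 45 libraries in all.

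The scion was the same cultivar in every group, and by design the root system and the graft union differed. Ripeness at a given day differed too, since the paper reports earlier colouring of the heterografted berries. At DAF75 its main component of expression, which followed the stage, also set the heterografts apart from CS and CS/CS. The roots and the ripeness of the berries cannot be told apart in comparisons at the same stage. The 3 rootstocks are hybrids of American Vitis species (101-14 of V. riparia and V. rupestris, 110R of V. berlandieri and V. rupestris, SO4 of V. berlandieri and V. riparia), and the grafts on them are called heterografts below. The sample titles name the self-grafted and the graft-free vines only by the words Crimson and Crimson Seedless, and which is which was taken from a note in the study's own read table. The methods speak of biological replicates without saying whether each came from separate vines, so the p-values measure the spread between these libraries. Total counts lay between 16387269 and 20765329 per library with a median of 18442527. All comparisons with CS at a stage share the same 3 CS libraries.

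Flavonols are colourless flavonoids of the skin that absorb ultraviolet light and stabilise anthocyanin colour. In grapevine the R2R3-MYB factor MYBF1 activates FLS genes, whose products turn dihydroflavonols into flavonols, and the bZIP factors HY5 and HYH, known in Arabidopsis as regulators of the response to light, act upstream of this branch. GT5 and GT6 are neighbouring glycosyltransferases that attach a sugar acid or a sugar to the flavonol, the form in which it is stored. In bulk skin, fewer cells of a type and less RNA per cell cannot be told apart.

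The gene names were those under which the identifiers had been selected. The deposited tables hold identifiers alone, and none of the 29591 rows of the reference gene table matched them (0 matches), so neither the names nor the skin origin of the samples could be checked against markers. FLSa is the one member that the study's primer list also holds, there as LDOX, the enzyme of anthocyanidin synthesis that is related in sequence to FLS, and the primers are shown because the name matters for reading its values. Whether VIT_18s0001g03430 encodes an FLS or an LDOX was not settled by any sequence at hand. The list heads the forward primer as written 3′ to 5′ and the reverse primer as written 5′ to 3′, and this heading could not be checked.
VIT_18s0001g03430 forward primer: ccctctttgtccatgtcggt
VIT_18s0001g03430 reverse primer: attgccttatggggaggtgc

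Levels are given in TPM, a measure of transcript abundance scaled to the depth of the library and to transcript length, which allows genes to be compared. HY5 had the highest mean over the 45 libraries, 79.7 TPM (range 15.9 to 251), followed by HYH with 39.1 TPM (15.6 to 83.4), FLSa with 34.1 TPM (0.849 to 166), GT5 with 20.9 TPM (1.65 to 76.2), FLSb with 10.1 TPM (0 to 61.5), GT6 with 7.71 TPM (0.172 to 42.4) and MYBF1 with 3.75 TPM (0.0428 to 14.7). The light regulators thus stayed above 15 TPM in all 45 libraries, while FLSb was at 0 in some. HYH, GT5, HY5 and FLSa had at least 10 counts in 45 of 45 libraries, GT6 in 43, MYBF1 in 38 and FLSb in 32.

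**Figure D1:**
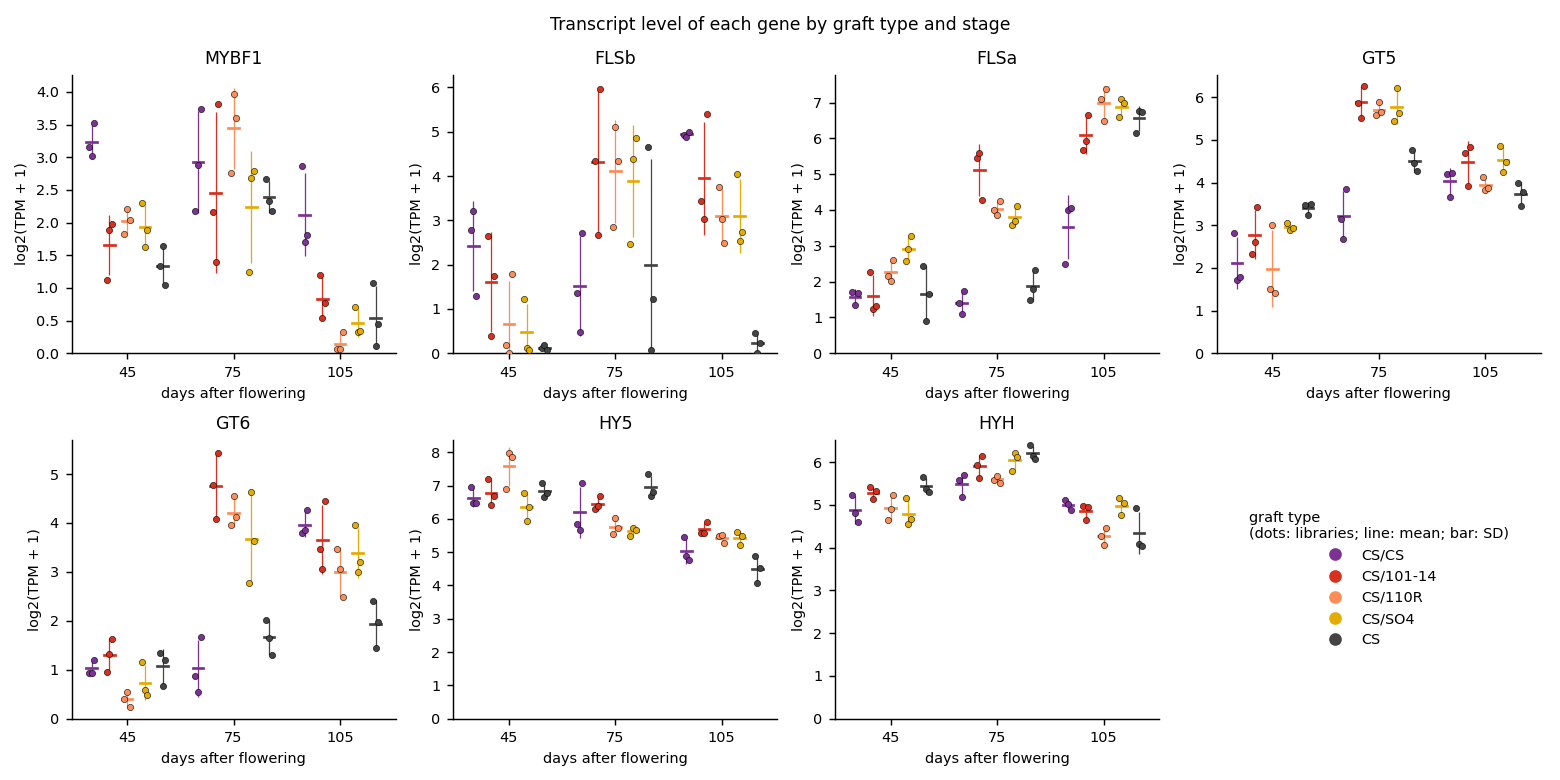
Level of the 7 genes as log2(TPM + 1), by stage in days after flowering and by graft type; each point is 1 library, each short line the mean of 3 libraries and each bar its SD. At DAF75 the heterografted libraries of FLSa (10.9 to 47.7 TPM), GT5 (42.6 to 76.2 TPM) and GT6 (5.84 to 42.4 TPM) all stand above the CS/CS and CS libraries. How many of all transcripts do so was not counted.

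Changes are given as log2 fold changes of the counts with their standard error (SE), and a change was called where it exceeded 1 in either direction with a Benjamini-Hochberg adjusted p of at most 0.05 in edgeR's quasi-likelihood test over all transcripts tested. Each of the 4 grafted types was set against CS at each stage to ask how grafting and the rootstock altered the skin. Over the 12 comparisons, 26 of the 79 tests of the 7 genes were called (21 higher and 5 lower in the grafted type), against 13.1% of all transcript tests in the same comparisons (6.26% higher and 6.81% lower). The median change of the 79 was 0.49, and that of all transcripts lay between -0.01 and 0.01 in each comparison. GT6 was called 7 times, FLSb and GT5 5 times each, FLSa 4 times, MYBF1 3 times, HY5 2 times and HYH 0 times. In the tests where FLSb was called, CS had too few counts for a lower level in the graft to be tested.

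FLSa, the cluster member that the primer list calls LDOX, was low at DAF45, and its rise by DAF75 was called in 2 of the 3 heterografts, CS/101-14 and CS/110R. In CS/SO4 the change stayed just under the limit, though FLSa was higher in every DAF75 library than in any of DAF45. At DAF45 it had 3.84, 1.37 and 1.47 TPM in CS/101-14, 3.45, 3.05 and 5.11 TPM in CS/110R, 5.01, 6.49 and 8.61 TPM in CS/SO4, 2.29, 1.52 and 2.18 TPM in CS/CS, and 4.39, 0.849 and 2.16 TPM in CS. The CS/SO4 libraries were all above those of CS, and the ranges of the other grafts overlapped CS. The change in CS/SO4 was 1.42 ± 0.50 (adjusted p = 0.0934) and none was called.

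At DAF75, FLSa had 42.4, 47.7 and 18.5 TPM in CS/101-14, 14.9, 13.6 and 18.1 TPM in CS/110R, 10.9, 12.02 and 16.2 TPM in CS/SO4, 1.64, 1.13 and 2.35 TPM in CS/CS, and 1.81, 2.48 and 4.05 TPM in CS. All 9 heterografted libraries were above all 6 of CS/CS and CS, and CS/101-14 did not overlap the other heterografts. FLSa was higher than in CS by 3.86 ± 0.42 in CS/101-14 (adjusted p = 0.00011), by 2.71 ± 0.28 in CS/110R (adjusted p = 0.000111) and by 2.38 ± 0.29 in CS/SO4 (adjusted p = 0.000348). The change in CS/CS was -0.73 ± 0.39 (adjusted p = 0.17), which was not called.

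At DAF105 the order was another one. FLSa had 49.6, 59.9 and 99.3 TPM in CS/101-14, 136, 88.0 and 166 TPM in CS/110R, 95.3, 135 and 125 TPM in CS/SO4, 4.61, 14.9 and 15.8 TPM in CS/CS, and 70.3, 108 and 106 TPM in CS. The self-grafted vines were now the group apart, with all 3 libraries below every other library of the stage. FLSa was lower in CS/CS than in CS by a log2 change of -3.09 ± 0.44 (adjusted p = 0.00257), whereas CS/101-14 (-0.52 ± 0.25), CS/110R (0.36 ± 0.25) and CS/SO4 (0.31 ± 0.18) were not called against CS.

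FLSb, the other cluster member, was nearly silent in CS at both ends of the course and was higher in all 4 grafted types at DAF105. At DAF45 it had 5.24, 0.319 and 2.37 TPM in CS/101-14, 0.141, 0 and 2.45 TPM in CS/110R, 1.33, 0.0936 and 0.0475 TPM in CS/SO4, 5.83, 8.26 and 1.44 TPM in CS/CS, and 0.0932, 0.137 and 0.0509 TPM in CS. All 3 CS/CS libraries and all 3 CS/101-14 libraries were above those of CS, which held 6 counts together. Per total count FLSb was 53.4 times as frequent in CS/CS as in CS (95% counting interval 24.3 to 147), and 29.3 times in CS/101-14 (13.2 to 81.0), intervals that cover counting error only. The fitted change in CS/CS was 5.55 ± 0.87 (adjusted p = 0.00356), a size that depends on how counts near 0 are treated, and the low counts kept FLSb out of the test in the other grafts at this stage. FLSb entered the test in CS/CS only through the 3 CS/CS libraries, so only a higher level there could be tested.

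At DAF75, FLSb had 19.2, 5.36 and 61.5 TPM in CS/101-14, 6.18, 33.7 and 19.3 TPM in CS/110R, 4.49, 19.8 and 27.8 TPM in CS/SO4, 1.58, 0.394 and 5.58 TPM in CS/CS, and 24.3, 0.0479 and 1.35 TPM in CS. CS replicate 1 carried 486 of the 515 CS counts and overlapped the heterografts, while the other two CS libraries were below all 9 of them. FLSb was not called against CS in CS/101-14 (1.92 ± 1.26), CS/110R (1.44 ± 1.20) or CS/SO4 (1.18 ± 1.23), and the SE exceeded 1 in each. Without CS replicate 1 the changes were 5.48, 4.99 and 4.74 in CS/101-14, CS/110R and CS/SO4 (adjusted p = 0.00993, 0.00528 and 0.0111).

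At DAF105, FLSb had 9.74, 7.12 and 40.9 TPM in CS/101-14, 12.4, 7.19 and 4.62 TPM in CS/110R, 15.6, 4.74 and 5.66 TPM in CS/SO4, 29.3, 28.6 and 31.1 TPM in CS/CS, and 0.370, 0 and 0.166 TPM in CS. Every grafted library was above every CS library, and CS held 13 counts in all. Relative to these, counts per total were 159 times as frequent in CS/CS (92.9 to 299), 105.4 times in CS/101-14 (61.4 to 198), 44.1 times in CS/110R (25.6 to 83.3) and 48.8 times in CS/SO4 (28.3 to 92.3). FLSb was called higher in all 4 grafts, by 7.25 ± 0.47 in CS/CS (adjusted p = 0.00024), 6.61 ± 0.99 in CS/101-14 (adjusted p = 0.0165), 5.33 ± 0.65 in CS/110R (adjusted p = 0.00198) and 5.53 ± 0.74 in CS/SO4 (adjusted p = 0.003). Each CS library held fewer than 10 counts, so FLSb entered these tests only through the 3 libraries of each graft. Only a higher level in the graft could thus be tested, and without any of those libraries there was no test. The call in CS/101-14 was lost without CS replicate 2 (6.01, adjusted p = 0.0767) or CS replicate 3 (6.57, adjusted p = 0.0823). Both cluster members therefore set CS/CS apart from CS at DAF105, with opposite signs.

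MYBF1, the activator of FLS genes, did not follow FLSa. At DAF45 it had 1.18, 2.68 and 2.92 TPM in CS/101-14, 2.55, 3.61 and 3.10 TPM in CS/110R, 3.90, 2.08 and 2.68 TPM in CS/SO4, 7.89, 7.08 and 10.5 TPM in CS/CS, and 1.52, 2.12 and 1.06 TPM in CS. The CS/CS libraries were above all others, and MYBF1 was higher there than in CS by 2.25 ± 0.30 (adjusted p = 0.00213). The changes in CS/101-14 (0.53 ± 0.48), CS/110R (0.78 ± 0.33) and CS/SO4 (0.82 ± 0.36) were not called.

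At DAF75, MYBF1 had 3.48, 1.63 and 13.1 TPM in CS/101-14, 5.79, 14.7 and 11.1 TPM in CS/110R, 1.37, 5.43 and 5.90 TPM in CS/SO4, 3.51, 6.36 and 12.3 TPM in CS/CS, and 5.33, 4.02 and 3.53 TPM in CS. The 3 CS/110R libraries were above those of CS, and the other types overlapped CS. CS/110R was called higher by 1.51 ± 0.30 (adjusted p = 0.00338), and CS/CS (0.77 ± 0.43), CS/101-14 (0.65 ± 0.65) and CS/SO4 (0.12 ± 0.46) were not called. Without its replicate 1 the change in CS/CS was 1.11 (adjusted p = 0.0432).

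By DAF105, MYBF1 had 1.29, 0.458 and 0.697 TPM in CS/101-14, 0.0443, 0.0428 and 0.251 TPM in CS/110R, 0.638, 0.258 and 0.266 TPM in CS/SO4, 6.26, 2.24 and 2.51 TPM in CS/CS, and 1.10, 0.0799 and 0.370 TPM in CS. CS/CS was again above every other library of the stage. Its change against CS was 2.72 ± 0.75 (adjusted p = 0.0273), which was lost without CS/CS replicate 1 (2.12, adjusted p = 0.0609), CS replicate 2 (2.20, adjusted p = 0.0623) or CS replicate 3 (2.52, adjusted p = 0.0977). MYBF1 had too few counts to pass the filter in CS/110R and CS/SO4. CS/110R held 8 counts over its 3 libraries and CS 38, of which 27 were in replicate 1. With no filter beyond 1 count, the fitted change over libraries in CS/110R was -2.24 ± 0.98 (adjusted p = 0.185) and that in CS/SO4 -0.45 ± 0.75 (adjusted p = 0.761), and neither was called.

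GT5 and GT6, the flavonol glycosyltransferases, were high in all heterografts at DAF75. GT5 then had 57.5, 44.995 and 76.2 TPM in CS/101-14, 46.5, 58.3 and 49.2 TPM in CS/110R, 42.6, 73.1 and 48.6 TPM in CS/SO4, 7.90, 5.36 and 13.3 TPM in CS/CS, and 26.1, 20.8 and 18.4 TPM in CS. The lowest heterografted library was above the highest CS library, and all CS/CS libraries were below those of CS. GT5 was called higher than in CS by 1.62 ± 0.20 in CS/101-14 (adjusted p = 0.000197), by 1.48 ± 0.12 in CS/110R (adjusted p = 4.44e-05) and by 1.49 ± 0.22 in CS/SO4 (adjusted p = 0.000817). In CS/CS it was called lower, by a change of -1.32 ± 0.30 (adjusted p = 0.0138), and this call was lost without CS/CS replicate 1 (-1.23, adjusted p = 0.0505).

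GT6 had 26.2, 16.0 and 42.4 TPM in CS/101-14 at DAF75, 14.6, 22.3 and 16.5 TPM in CS/110R, 5.84, 23.9 and 11.4 TPM in CS/SO4, 0.824, 0.456 and 2.20 TPM in CS/CS, and 3.03, 2.15 and 1.48 TPM in CS. Again no heterografted library overlapped CS or CS/CS. GT6 was higher than in CS by 3.83 ± 0.40 in CS/101-14 (adjusted p = 8.5e-05), by 3.24 ± 0.24 in CS/110R (adjusted p = 2.81e-05) and by 2.78 ± 0.52 in CS/SO4 (adjusted p = 0.00284). The change in CS/CS was -0.97 ± 0.55 (adjusted p = 0.194) and reached the call without CS/CS replicate 3 (-1.77, adjusted p = 0.0126).

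At DAF45 both genes were low. GT5 had 3.996, 5.08 and 9.70 TPM in CS/101-14, 1.86, 7.09 and 1.65 TPM in CS/110R, 7.25, 6.40 and 6.63 TPM in CS/SO4, 6.01, 2.31 and 2.47 TPM in CS/CS, and 10.2, 8.50 and 10.3 TPM in CS. GT6 had between 0.172 and 2.09 TPM in the heterografts, between 0.899 and 1.31 TPM in CS/CS and between 0.578 and 1.53 TPM in CS. GT5 was lower in CS/CS than in CS (-1.60 ± 0.34, adjusted p = 0.0112), and GT6 was lower in CS/110R than in CS (-1.99 ± 0.49, adjusted p = 0.0249). The GT6 call was lost without CS/110R replicate 1 (-1.95) or 3 (-1.69) and without CS replicate 1 (-1.71) or 3 (-1.93). GT5 in CS/110R (-1.62 ± 0.53, adjusted p = 0.0645) reached the call without CS/110R replicate 2 (-2.63, adjusted p = 0.00099).

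At DAF105, GT6 had 10.03, 7.37 and 20.8 TPM in CS/101-14, 10.1, 7.38 and 4.57 TPM in CS/110R, 14.6, 7.04 and 8.14 TPM in CS/SO4, 12.8, 13.4 and 18.2 TPM in CS/CS, and 4.29, 1.71 and 2.91 TPM in CS. Every grafted library was above every CS library, as for FLSb. GT6 was called higher in CS/CS (2.22 ± 0.33, adjusted p = 0.00308), CS/101-14 (1.997 ± 0.44, adjusted p = 0.0456) and CS/SO4 (1.70 ± 0.36, adjusted p = 0.0201), and the change in CS/110R was 1.17 ± 0.37 (adjusted p = 0.0673). The call in CS/101-14 was lost without any of its 3 libraries (1.496 to 2.26) and without CS replicate 2 (1.70) or 3 (1.98). In CS/SO4 it was lost without CS/SO4 replicate 1 (1.34) and without CS replicate 2 (1.41) or 3 (1.68), and CS/110R reached the call without its replicate 3 (1.41) or CS replicate 1 (1.55). GT5 was not called against CS at this stage, with changes of 0.74 ± 0.25 for CS/101-14, 0.08 ± 0.17 for CS/110R, 0.80 ± 0.20 for CS/SO4 and 0.21 ± 0.22 for CS/CS.

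HY5 and HYH, the light-response bZIP factors, differed less between graft types. At DAF75, HY5 had 77.6, 82.8 and 102 TPM in CS/101-14, 46.1, 64.0 and 52.0 TPM in CS/110R, 43.9, 51.6 and 49.8 TPM in CS/SO4, 57.0, 49.7 and 134 TPM in CS/CS, and 162, 102 and 110 TPM in CS. All heterografted libraries lay below those of CS, though the highest of CS/101-14 (102.1 TPM) was close to the lowest of CS (102.3 TPM). The change in CS/101-14 was not called. HY5 was called lower in CS/SO4 (-1.22 ± 0.17, adjusted p = 0.000718), and the change in CS/110R (-0.996 ± 0.18, adjusted p = 0.00177) stopped short of the fold limit, which it passed without CS/110R replicate 2 (-1.08) or without CS replicate 2 (-1.13) or 3 (-1.09). The change in CS/CS (-0.68 ± 0.37) was called without its replicate 3 (-1.23, adjusted p = 0.00315).

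At DAF105, HY5 had 47.1, 47.0 and 58.9 TPM in CS/101-14, 43.9, 44.4 and 37.6 TPM in CS/110R, 47.6, 36.3 and 43.9 TPM in CS/SO4, 43.2, 28.3 and 26.0 TPM in CS/CS, and 28.6, 15.9 and 22.1 TPM in CS. All heterografted libraries were above those of CS, and CS/CS overlapped CS. HY5 was called higher in CS/101-14 (1.13 ± 0.22, adjusted p = 0.0333), a call lost without any of the CS/101-14 libraries (1.03 to 1.18) and without CS replicate 2 (0.92) or 3 (1.13). The changes in CS/110R (0.84 ± 0.21) and CS/SO4 (0.93 ± 0.22) were below the fold limit, which CS/110R passed without CS replicate 1 (1.09) and CS/SO4 without CS replicate 1 (1.18) or its own replicate 2 (1.04).

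HY5 at DAF45 averaged 111 ± 31.3 TPM in CS/101-14, 201 ± 71.6 in CS/110R, 83.7 ± 24.6 in CS/SO4, 100.3 ± 21.1 in CS/CS and 115 ± 17.0 in CS (SD, n = 3 each), with no call. HYH was called in 0 of 12 comparisons with CS, and its changes ran between -0.75 and 0.58. Those of CS/CS at DAF45 (-0.74 ± 0.19, adjusted p = 0.0205) and DAF75 (-0.75 ± 0.14, adjusted p = 0.00678) passed on p but were below the fold limit. HY5 counts were not whole numbers in 44 of 45 libraries, so some of its reads had been shared with a feature that was not identified, and the part of this in its values was not tested.

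**Figure D2:**
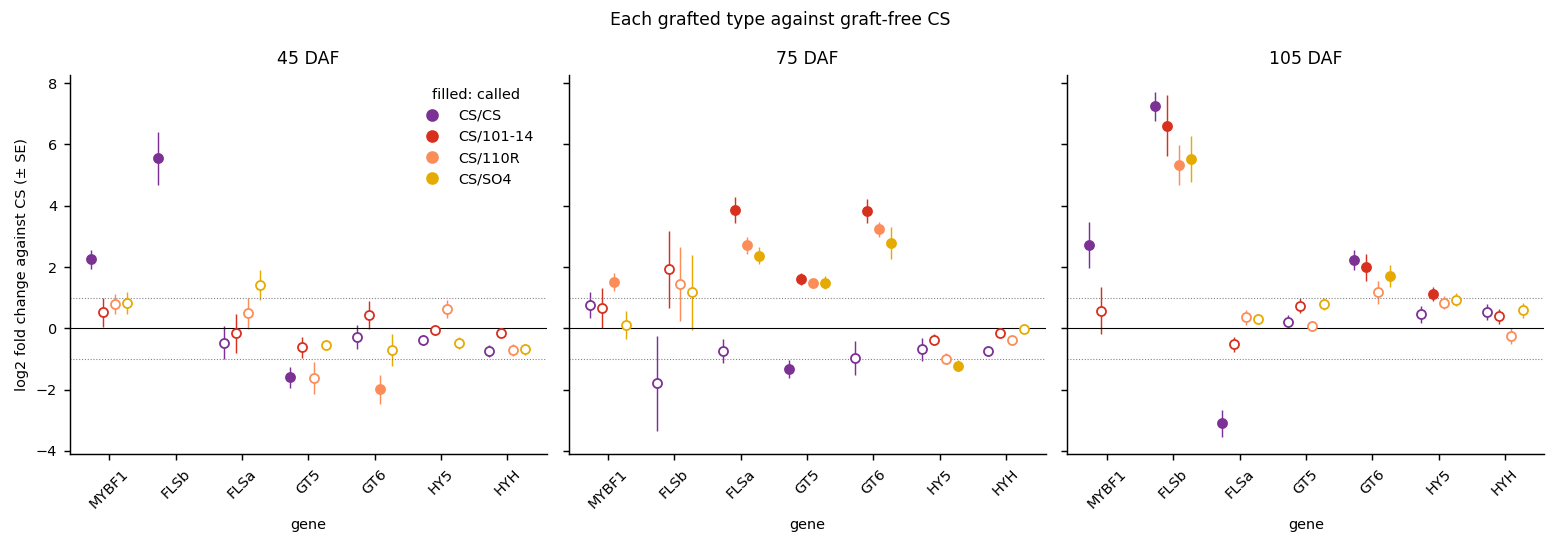
Log2 fold change of each gene in the 4 grafted types against CS at DAF45, DAF75 and DAF105, with its SE; filled marks are called changes. FLSa, GT5 and GT6 are called higher in all 3 heterografts at DAF75, and FLSb in all 4 grafted types at DAF105.

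By comparison, the calls among the 7 genes were unevenly spread. At DAF45, 3 of 7 tested genes were called in CS/CS (18.2% of all transcripts), 0 of 6 in CS/101-14 (0.144%), 1 of 6 in CS/110R (11.0%) and 0 of 6 in CS/SO4 (5.25%). At DAF75, 1 of 7 was called in CS/CS (15.9%), 3 of 7 in CS/101-14 (27.9%), 4 of 7 in CS/110R (24.1%) and 4 of 7 in CS/SO4 (22.9%). At DAF105, 4 of 7 were called in CS/CS (16.5%), 3 of 7 in CS/101-14 (2.11%), 1 of 6 in CS/110R (6.84%) and 2 of 6 in CS/SO4 (4.50%).

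The 9 heterografted libraries of a stage were then set against the 6 of CS/CS and CS, pooled without regard to rootstock or control type. The question was what separated foreign roots from Crimson Seedless roots, though CS also lacked a graft union. The p-values of this comparison measure the spread between pooled libraries and not that between the 3 rootstocks. Over the 3 stages, 5 of 21 tests were called, against 14.1% of all transcript tests. At DAF75, 4 of the 7 genes were called, all higher (29.0% of transcripts in either direction and 11.2% higher). At DAF105, 1 of 7 was called, and it was lower (9.30% in either direction and 8.27% lower), and at DAF45 0 of 7 were called (3.66%).

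At DAF75, FLSa had a median of 16.2 TPM in the heterografts (range 10.9 to 47.7) and 2.08 TPM in CS/CS and CS together (1.13 to 4.05), a change of 3.44 ± 0.41 (adjusted p = 2.76e-06). GT5 had a median of 49.2 TPM in the heterografts (42.6 to 76.2) and 15.9 TPM in CS/CS and CS (5.36 to 26.1), a change of 2.04 ± 0.29 (adjusted p = 1.54e-05). GT6 had a median of 16.5 TPM in the heterografts (5.84 to 42.4) and 1.81 TPM in CS/CS and CS (0.456 to 3.03), a change of 3.75 ± 0.46 (adjusted p = 3.25e-06). For these 3 genes the 9 and the 6 libraries did not overlap. The share of all transcripts without overlap was not counted, here or for the ranges of single graft types above. Whether such separation is particular to these genes is therefore not known.

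FLSb had a median of 19.3 TPM in the heterografts at DAF75 (4.49 to 61.5) and 1.47 TPM in CS/CS and CS (0.0479 to 24.3), and its change of 2.17 ± 0.89 (adjusted p = 0.0428) was lost without any one of 11 libraries, namely all but CS/101-14 replicate 2, CS/110R replicate 1, CS/SO4 replicate 1 and CS replicate 1, with changes of 1.81 to 2.21. MYBF1 at DAF105 had a median of 0.266 TPM in the heterografts (0.0428 to 1.29) and 1.67 TPM in CS/CS and CS (0.0799 to 6.26), a change of -2.23 ± 0.72 (adjusted p = 0.0368). This call was lost without any one of 9 libraries, namely CS/101-14 replicate 2, each CS/110R library, CS/SO4 replicates 2 and 3 and each CS/CS library, with changes of -1.52 to -2.24. The CS/CS libraries (2.24 to 6.26 TPM) were above every heterografted library, while those of CS (0.0799 to 1.10 TPM) overlapped the heterografts. The pooled median of 1.67 TPM lay between CS and CS/CS. FLSa at DAF45 (0.96 ± 0.41, adjusted p = 0.127) reached the call without CS replicate 1 (1.31, adjusted p = 0.0471). HY5 at DAF105 was higher by 0.72 ± 0.16 (adjusted p = 0.0074), below the fold limit.

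The pooled comparison at DAF105 set the heterografts against CS/CS and CS libraries that lay far apart. FLSa had a change of 0.95 ± 0.55 (adjusted p = 0.222) and FLSb one of -0.33 ± 0.92 (adjusted p = 0.822), and neither was called. With the 5 graft types fitted as separate groups, FLSa was called higher by 1.59 (adjusted p = 0.000269) and FLSb, with its sign turned, by 2.20 (adjusted p = 0.00652).

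Whether the heterograft effect differed between stages was tested directly, with the libraries pooled in the same way. Between DAF75 and DAF45 it differed for 3 of 7 genes (23.0% of transcripts), being larger at DAF75 by 2.50 ± 0.56 for FLSa, 2.31 ± 0.54 for GT5 and 4.07 ± 0.65 for GT6. FLSb had a difference of 3.10 ± 1.42 with an adjusted p of 0.0784, which was not called. Between DAF75 and DAF105 it differed for 5 of 7 genes (19.1% of transcripts), by 2.48 ± 0.71 for FLSa, 2.64 ± 0.89 for MYBF1, 1.56 ± 0.35 for GT5, 3.58 ± 0.64 for GT6 and -1.26 ± 0.31 for HY5. HYH had differences of 0.31 ± 0.27 and 0.14 ± 0.27 and was not called. Several of these calls were lost when a replicate number was left out of all groups. The MYBF1 difference was lost without replicate 1, 2 or 3 (2.52, 2.58 and 2.71, adjusted p = 0.0673, 0.0642 and 0.102) and in limma. It includes the comparison at DAF105, where CS/CS but not CS stood above the heterografts. The FLSa difference was lost between DAF75 and DAF45 without replicate 1 (1.81, adjusted p = 0.0646) and between DAF75 and DAF105 without replicate 2 (2.10, adjusted p = 0.0762) and in limma, and the HY5 difference without replicate 3 (-1.04, adjusted p = 0.0644). FLSb reached the call without replicate 1 in both contrasts (5.56, adjusted p = 0.0214, and 4.49, adjusted p = 0.0484).

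Along the course of the berry, each stage was set against the one before it within each graft type. Over the 10 steps, 34 of 68 tests of the 7 genes were called (22 higher and 12 lower at the later stage), against 22.4% of all transcript tests (9.36% higher and 13.0% lower). For DAF105 against DAF75, 4 of 7 were called in CS/CS (28.4% of transcripts), 3 of 7 in CS/101-14 (9.93%), 5 of 7 in CS/110R (19.4%), 3 of 7 in CS/SO4 (16.6%) and 4 of 6 in CS (33.6%). For DAF75 against DAF45, 0 of 7 were called in CS/CS (11.3%), 4 of 7 in CS/101-14 (31.1%), 6 of 7 in CS/110R (31.5%), 4 of 7 in CS/SO4 (29.5%) and 1 of 6 in CS (12.2%).

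FLSa rose at DAF105 against DAF75 in all 5 graft types, by 3.12 ± 0.52 in CS/CS (adjusted p = 0.00307), 1.11 ± 0.36 in CS/101-14 (adjusted p = 0.0499), 3.16 ± 0.26 in CS/110R (adjusted p = 5.39e-05), 3.42 ± 0.17 in CS/SO4 (adjusted p = 8.59e-06) and 5.50 ± 0.28 in CS (adjusted p = 3.02e-06). The call in CS/101-14 was at the limit and was lost without any of its 3 libraries at DAF75 (0.79 to 1.35), without replicate 2 (1.18) or 3 (0.81) at DAF105, and in DESeq2 (1.11, adjusted p = 0.0587). It had already risen at DAF75 against DAF45 in CS/101-14 (4.02 ± 0.52) and CS/110R (2.20 ± 0.23). In CS/SO4 the earlier step was 0.98 ± 0.22, just under the fold limit, and passed it without replicate 1 (1.09) or 2 (1.05) at DAF75 or replicate 3 at DAF45 (1.18). In CS/CS and CS the earlier step was -0.23 ± 0.32 and 0.00 ± 0.55.

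FLSb rose at DAF75 against DAF45 in CS/101-14 (3.46 ± 1.10, adjusted p = 0.0352), CS/110R (4.65 ± 1.05, adjusted p = 0.00618) and CS/SO4 (5.08 ± 0.96, adjusted p = 0.0026), and at DAF105 against DAF75 in CS/CS (3.92 ± 0.72, adjusted p = 0.00444). The step in CS/101-14 was lost without replicate 1 (3.70) or 3 (2.27) at DAF75 and without replicate 2 (2.95) or 3 (3.38) at DAF45. In CS neither step passed the filter, since 10 counts were reached in only 2 of the 6 libraries of each. With no filter beyond 1 count, FLSb in CS changed by 6.20 ± 1.94 at DAF75 against DAF45 (adjusted p = 0.045) and by -5.12 ± 1.70 at DAF105 against DAF75 (adjusted p = 0.0291), and with a minimum mean of 1 TPM the adjusted p-values were 0.0501 and 0.0394. CS held 6 counts at DAF45, 515 at DAF75, of which 486 were in replicate 1, and 13 at DAF105. In CS/110R the step of -1.19 ± 0.54 at DAF105 against DAF75 was called without replicate 1 at DAF75 (-1.61, adjusted p = 0.0116).

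MYBF1 ran the other way late in the course. At DAF105 against DAF75 it fell in CS/101-14 (-2.69 ± 0.80, adjusted p = 0.037), CS/110R (-6.35 ± 0.55, adjusted p = 7.26e-05), CS/SO4 (-3.20 ± 0.60, adjusted p = 0.0029) and CS (-2.62 ± 0.61, adjusted p = 0.00551), while CS/CS had a change of -0.68 ± 0.55. In CS/110R, 683 counts at DAF75 stood against 8 at DAF105. MYBF1 entered that test only through the DAF75 libraries, so only a fall could be tested there. The fall in CS/101-14 was lost without replicate 3 at DAF75 (-1.46) and without replicate 2 (-2.42) or 3 (-2.56) at DAF105. At DAF75 against DAF45, MYBF1 rose in CS/110R (1.94 ± 0.31, adjusted p = 0.00124) and CS (1.24 ± 0.32, adjusted p = 0.019), the call in CS being lost without replicate 1 at DAF75 (1.08) or at DAF45 (1.20).

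GT5 rose at DAF75 against DAF45 in CS/101-14 (3.24 ± 0.39), CS/110R (4.05 ± 0.52) and CS/SO4 (3.05 ± 0.21), and fell at DAF105 against DAF75 in the same types (-1.24 ± 0.26, -1.75 ± 0.11 and -1.07 ± 0.22). The fall in CS/SO4 stayed under the fold limit without replicate 2 at DAF75 (-0.80) or at DAF105 (-0.92). GT6 rose at DAF75 against DAF45 in CS/101-14 (4.21 ± 0.49), CS/110R (5.99 ± 0.29) and CS/SO4 (4.29 ± 0.62), and fell later in CS/110R (-1.20 ± 0.25, or -0.96 without replicate 3 at DAF105). In CS/101-14 the later step of GT6 was -0.99 ± 0.43, called without replicate 3 at DAF105 (-1.48, adjusted p = 0.0344).

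In CS/CS the calls of the 7 genes were all in the later step. There GT6 rose at DAF105 against DAF75 by 4.03 ± 0.50 (adjusted p = 0.000971) and GT5 by 1.15 ± 0.32 (adjusted p = 0.0233), the GT5 call being lost without replicate 1 (1.06) or 2 (0.91) at DAF75 and without replicate 1 (1.08) or 3 (1.06) at DAF105. The step of GT5 in CS/CS at DAF75 against DAF45 was 1.30 ± 0.45 (adjusted p = 0.0757) and reached the call without replicate 1 at DAF45 (1.84, adjusted p = 0.0307). In CS, GT5 changed by 0.98 ± 0.13 at DAF75 against DAF45, just under the fold limit, which it passed without replicate 2 (1.02) or 3 (1.09) at DAF75 or replicate 1 at DAF45 (1.01). GT6 in CS changed by 0.78 ± 0.39 and then 0.86 ± 0.38, the second called without replicate 2 at DAF105 (1.17, adjusted p = 0.0178).

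Among the light regulators, called steps were few. HY5 fell at DAF105 against DAF75 in CS (-2.10 ± 0.26, adjusted p = 0.000178) and at DAF75 against DAF45 in CS/110R (-1.72 ± 0.28, adjusted p = 0.00133), and in the other 8 steps it was not called. HYH rose at DAF75 against DAF45 in CS/SO4 (1.28 ± 0.18, adjusted p = 0.000638) and fell at DAF105 against DAF75 in CS/110R (-1.28 ± 0.13, adjusted p = 0.000163) and CS (-1.43 ± 0.25, adjusted p = 0.00127). The earlier step of HYH was positive in all 5 types, and those of CS/CS (0.61 ± 0.19), CS/101-14 (0.62 ± 0.14), CS/110R (0.86 ± 0.17) and CS (0.59 ± 0.13) were under the fold limit, which CS/110R passed without replicate 3 at DAF45 (1.03). Its later step in CS/101-14 was -0.91 ± 0.15, or -1.05 without replicate 2 at DAF75.

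**Figure D3:**
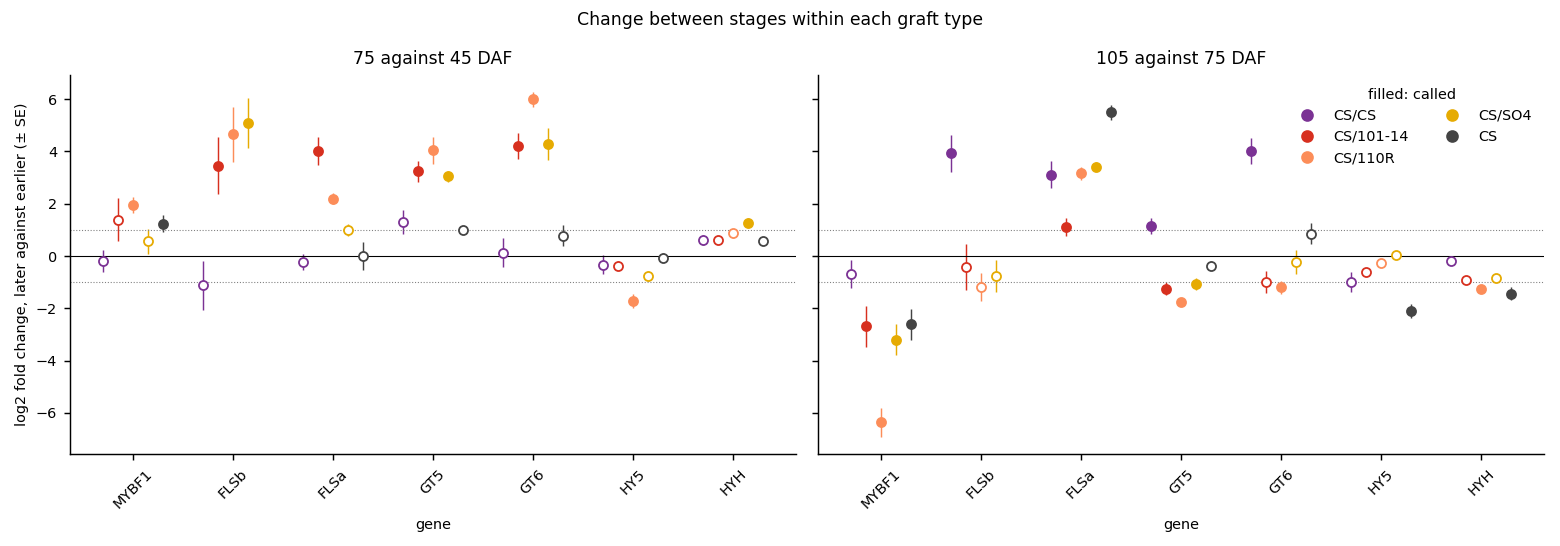
Log2 fold change of each gene at DAF75 against DAF45 and at DAF105 against DAF75 in the 5 graft types, with its SE; filled marks are called changes. FLSa rises at DAF105 against DAF75 in all 5 types, and MYBF1 falls in CS/101-14, CS/110R, CS/SO4 and CS.

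In the order of the 15 group means, FLSa was highest in CS/110R (130 TPM), CS/SO4 (118 TPM), CS (94.7 TPM) and CS/101-14 (69.6 TPM) at DAF105, and lowest in CS/CS at DAF75 (1.71 TPM). Of the 14 pairs of neighbours in this order, 12 had overlapping libraries, the exceptions being CS/101-14 at DAF105 above CS/101-14 at DAF75, and CS/101-14 at DAF75 above CS/110R at DAF75. FLSb was highest in CS/CS at DAF105 (29.7 TPM) and CS/101-14 at DAF75 (28.7 TPM), and all 14 pairs of neighbours overlapped. The number of overlapping pairs was 13 for MYBF1, HYH and GT6, 12 for GT5 and 14 for HY5.

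GT5 and GT6 did not hold a fixed ratio. At DAF75 the median share of GT6 in the counts of both was 31.8% in CS/101-14, 25.5% in CS/110R, 19.3% in CS/SO4, 9.62% in CS/CS and 9.54% in CS. All 9 heterografted libraries (12.3% to 36.2%) were above the CS libraries (7.58% to 10.6%), while 1 CS/CS library (14.4%) lay within the heterografted range. At DAF105 the median was 34.6% in CS/101-14, 36.4% in CS/110R, 28.7% in CS/SO4, 51.4% in CS/CS and 18.9% in CS, with CS/CS (42.9% to 54.2%) above CS (15% to 22.7%). At DAF45 it was 19.1% in CS/101-14, 9.62% in CS/110R, 7.29% in CS/SO4, 28.9% in CS/CS and 11.3% in CS.

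GT5 had a count that was not whole in 9 libraries and GT6 in 8, and in those 8 the sum of both was whole, so some reads had been divided between these neighbours. With the counts of both summed, the increase over CS at DAF75 was still called in the 3 heterografts. The summed change at DAF105 was 1.03 in CS/SO4 (adjusted p = 0.0242), which was called, and 1.09 in CS/101-14 (adjusted p = 0.0744), 0.37 in CS/110R (adjusted p = 0.256) and 0.88 in CS/CS (adjusted p = 0.0183), which were not called.

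**Figure D4:**
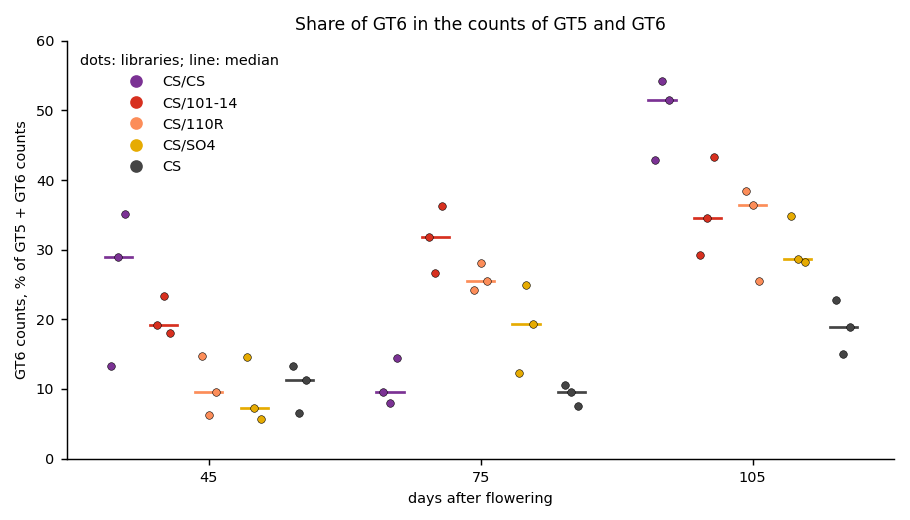
Share of GT6 in the summed counts of GT5 and GT6, in percent, by stage and graft type; each point is 1 library and each bar marks the median. At DAF75 the heterografted medians lie between 19.3% and 31.8%, against 9.62% in CS/CS and 9.54% in CS.

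The libraries of a group did not scatter independently for most of these genes. Over the 45 deviations of log2(TPM + 1) from the group mean, HY5 and HYH had a Pearson r of 0.69, GT5 and GT6 0.66, FLSb and GT6 0.61, MYBF1 and GT6 0.60, FLSb and HY5 0.60, FLSb and HYH 0.58 and FLSb and MYBF1 0.49. Deviations of FLSa had an r of -0.04 with those of FLSb and -0.46 with those of MYBF1. The latter was low on both sides: 99.2% of transcripts compared with FLSa and 99.5% of those compared with MYBF1 had an r at least as high. The values are descriptions: pairs from 1 library share its depth and its berries, and of 17664 transcripts compared with FLSb, 1.69% had an r at least as high as GT6 did and 6.54% at least as high as MYBF1 did. For HY5 and HYH with FLSb the shares were 1.77% and 2.40%. The share was 1.19% for HYH with HY5, 0.125% for GT6 with GT5 and 0.379% for GT6 with MYBF1.

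The same library held the highest value of the group for HY5 and HYH in 12 of 15 groups, for GT5 and GT6 in 13, for FLSb and GT6 in 10, for FLSb and MYBF1 in 9, and for FLSa and MYBF1 in 3. How often other pairs of transcripts share their highest library was not counted, and GT5 and GT6 divided some reads. In CS at DAF75, replicate 1 was the highest of the 3 for FLSb, MYBF1, HY5, HYH, GT5 and GT6, and the lowest for FLSa. CS/101-14 replicate 3 was the highest for FLSb, MYBF1, HY5, HYH, GT5 and GT6 at DAF75, and likewise the lowest for FLSa. A difference between single collections of berries and one in the handling of the libraries cannot be told apart here.

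**Figure D5:**
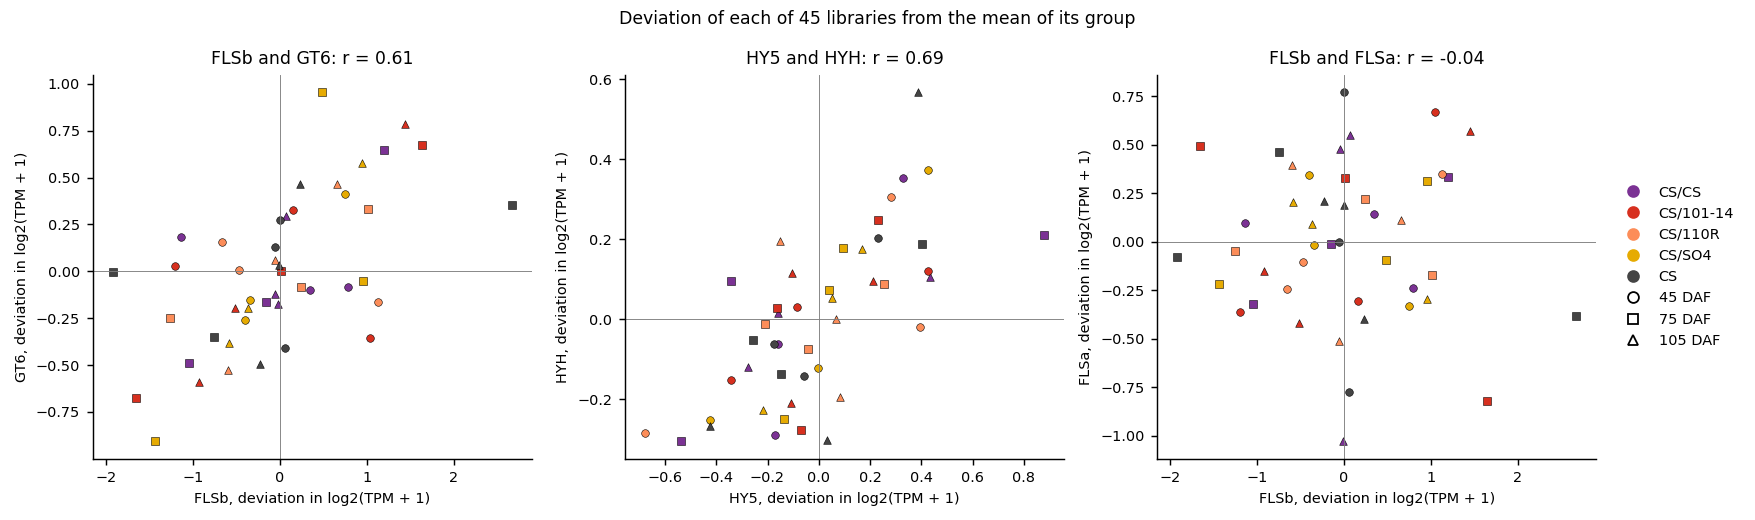
Deviation of each of the 45 libraries from its group mean of log2(TPM + 1) for 3 pairs of genes; each point is 1 library. FLSb and GT6 scatter together (r = 0.61), as do HY5 and HYH (r = 0.69), whereas FLSb and FLSa do not (r = -0.04).

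For the supply of the branch, 7 genes were counted in the same fits under the precursor names of the study's primer list. They were PAL1, 4CL1, 4CLL2, 4CLL5, CHS, CHI and F3H, names as listed there and not checked. That each of the 7 acts in the flavonoid pathway is therefore not settled. Against CS, 16 of 71 tests were called higher and 11 lower, with a median change of 0.31, where 6.26% of all transcript tests were higher and 6.81% lower. At DAF75 the heterografts each had 3 of 6 called higher (listed as 4CLL5, CHI and F3H) and 1 lower (listed as 4CLL2). Of all transcripts, 27.9% were called for CS/101-14, 24.1% for CS/110R and 22.9% for CS/SO4. VIT_05s0094g00350 is the gene listed as CHI, and whether it belongs to this pathway was not checked. The gene listed as F3H carries the name of the step that makes the dihydroflavonol substrate of FLS. Its median at DAF75 was 717 TPM in CS/101-14, 712 in CS/110R, 582 in CS/SO4, 149 in CS/CS and 246 in CS. Its changes against CS were 1.77 ± 0.20 for CS/101-14, 1.86 ± 0.09 for CS/110R and 1.29 ± 0.15 for CS/SO4, in the direction of FLSa, GT5 and GT6. VIT_16s0100g00950 is the gene listed as CHS, the name of the enzyme that makes the chalcone at the head of the pathway. Whether it is a CHS was not checked, so its values are not read as supply of the branch. It had changes against CS of 0.38 ± 0.51, -0.09 ± 0.36 and 0.17 ± 1.08 in CS/101-14, CS/110R and CS/SO4 at DAF75. In CS/CS it was called higher than in CS at DAF105, by 6.51 ± 0.41.

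Around the members, the identifiers near FLSa and FLSb ran from silent to abundant. VIT_18s0001g03420, VIT_18s0001g03440, VIT_18s0001g03490 and VIT_18s0001g03500 were listed at 0 in all 45 libraries. VIT_18s0001g03450 had 294 to 667 TPM, VIT_18s0001g03520 had 6.81 to 32.3 TPM, VIT_18s0001g03400 had 1.68 to 7.68 TPM, VIT_18s0001g03390 had 0.546 to 2.73 TPM and VIT_18s0001g03410 had 0.120 to 5.59 TPM. Between GT5 and GT6, VIT_11s0052g01610 reached at most 0.977 TPM and VIT_11s0052g01620 at most 2.53 TPM, against 76.2 TPM for GT5 and 42.4 TPM for GT6. Neighbourhood was read from the identifiers alone.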

How the data were processed

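Berry peel RNA of 45 libraries was analysed in 15 groups taken from the sample titles. The authors trimmed reads with fastp, used HISAT2 for alignment to the grapevine 12X assembly, StringTie for assembly and HTSeq for counting, in versions not given in the sources used here. The deposited expected counts (87.6% of values above 0 whole, within 0.0005) were rounded to whole numbers, since the table holds fractions that a plain read counter would not give. The deposited TPM values, as the authors scaled them, were used for levels, likeness and an alternative test. Annotation columns were absent, and 0 columns of per-library values were left unassigned.

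Counts were scaled by TMM and tested with edgeR 4.0.16 (R 4.3.3) glmQLFit and glmQLFTest, keeping a transcript that reached 10 counts in 3 or more libraries of the comparison, with Benjamini-Hochberg adjustment over all transcripts tested. The fold limit (log2 change above 1) is that of the study. Each grafted type was compared with CS, each stage with the one before it, and the heterografts with CS/CS and CS, and the difference of the heterograft effect between stages was a contrast. Counting intervals are exact 95% intervals of a ratio of counts. Scripts were tested on simulated data. The alternatives were DESeq2 1.42.0, RLE size factors, a filter of 1 count only, a minimum mean of 1 TPM, a replicate block, limma 3.58.1 on log2(TPM + 1) and log2(TPM + 0.1), one fit of all 45 libraries, 5 separate graft types, leaving out libraries and, chosen after seeing the data, GT5 and GT6 summed, and leaving out each library of the heterograft comparison. All 7 members were named in every comparison. For likeness, the 2 transcripts with the highest r over the 15 group means were taken. The 7 genes, the precursor list and the tests were chosen with earlier results of these data known.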

Additional observations from a re-analysis of the deposited data

Results flagged for a closer look

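Over the 9 heterografted libraries of a stage, or the 6 of CS/CS and CS, 5 of 42 sets had a highest or lowest library apart from the rest by Dixon's limit. Chance gives about 1 in 20 where the libraries of a set are alike. These sets mixed graft types, and the genes shared their libraries, so the 5 were not weighed against that rate. FLSb at DAF45 had 5.24 TPM in CS/101-14 replicate 1, with the next heterografted library at 2.45 TPM. FLSb at DAF105 had 40.9 TPM in CS/101-14 replicate 3, with the next at 15.6 TPM. HY5 had 58.9 TPM in that same library, with the next at 47.6 TPM. Among CS/CS and CS at DAF75, FLSb had 24.3 TPM in CS replicate 1 and MYBF1 had 12.3 TPM in CS/CS replicate 3, with the next libraries at 5.58 and 6.36 TPM.

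The heterograft effect differed between stages by its own test for 5 genes. Between DAF75 and DAF45 the difference was 2.50 for FLSa, 2.31 for GT5 and 4.07 for GT6 on the log2 scale. Between DAF75 and DAF105 it was 2.48 for FLSa, 2.64 for MYBF1, -1.26 for HY5, 1.56 for GT5 and 3.58 for GT6. With replicate numbers left out in turn, the differences of GT5 and GT6 were kept, that of MYBF1 was lost each time (adjusted p = 0.0642 to 0.102), that of HY5 without replicate 3 (adjusted p = 0.0644), and those of FLSa without replicate 1 against DAF45 (adjusted p = 0.0646) and without replicate 2 against DAF105 (adjusted p = 0.0762).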

How the results depend on the processing

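Calls among the 7 genes numbered 26 against CS, 34 over stage steps, 5 for heterografts against CS/CS and CS, and 8 for differences between stages. With whole replicate numbers left out they were 16 to 22, 29 to 32, 3 to 4 and 6 to 8, and with the other settings 25 to 29, 33 to 38, 4 to 7 and 7 to 9. FLSb in the heterografts at DAF105 reversed, from -0.33 in the pooled fit to 2.20 (adjusted p = 0.00652) with 5 separate graft types, which weights CS and CS/CS equally on the log scale; the cause was not tested. With the replicate block, calls were 27, 34, 5 and 9: GT6 in CS/110R against CS at DAF45 (-1.96, adjusted p = 0.0518) and FLSa in CS/101-14 at DAF105 against DAF75 (1.14, adjusted p = 0.0903) were lost, and GT5 in CS/110R at DAF45 (-1.90), GT6 in CS/110R at DAF105 (1.19), FLSa in CS/SO4 at DAF75 against DAF45 (1.0004) and the FLSb difference between DAF75 and DAF45 (4.06) were gained. In 0 of 22 comparisons did every same-numbered pair correlate above 0.1 (r between -0.30 and 0.53), so the numbers were not read as a pairing. In limma, MYBF1 in the heterografts at DAF105 (-0.85 with a pseudocount of 1, -1.57 with 0.1) and the differences of FLSa and MYBF1 between DAF75 and DAF105 were lost. RLE in place of TMM moved fold changes by at most 0.054. Of 65 called single-gene results, 49 were kept in every fit without a single library that could be run. Only 3 such fits could be run for FLSb against CS in CS/CS at DAF45 and in the 4 grafts at DAF105. The same held for MYBF1 in CS/110R at DAF105 against DAF75. Without any library of the higher group these genes missed the count filter, so the loss of those libraries was not tested. At 6 counts in CS at DAF45 and 13 at DAF105, FLSb sizes are limited by depth.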

Other observations

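For each of the 7 genes, the transcripts whose 15 group means of log2(TPM + 1) ran most like its own were listed among 17664 transcripts, as a description over groups that share stages and graft types. FLSa was closest to VIT_05s0020g04080 (r = 0.98), MYBF1 to VIT_02s0025g01500 (r = 0.98), GT5 to VIT_14s0060g00720 (r = 0.98), GT6 to VIT_04s0023g01650 (r = 0.96), HY5 to VIT_12s0035g02150 (r = 0.95), HYH to VIT_04s0023g02010 (r = 0.95) and FLSb to VIT_05s0077g01540 (r = 0.88). The sources pair none of these identifiers with a name. Among the 7 genes themselves, FLSb and GT6 had an r of 0.89 over the 15 group means, and no transcript outside the 7 was closer to FLSb than GT6. FLSa and FLSb had an r of 0.38, FLSa and HY5 -0.73, and FLSa and MYBF1 -0.68. Among the transcripts compared with FLSa these were not unusual values, but FLSa was among the lowest for MYBF1 and HY5. Of the transcripts compared with FLSa, 25.6% had an r at least as high as FLSb did, 72.6% as HY5 did and 68.3% as MYBF1 did. An r at least as high as that of FLSa was held by 98.1% of those compared with MYBF1, 96.4% with HY5 and 23.2% with FLSb.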
